A study of Homo sapiens with 6 samples.

Results

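The HOX genes encode homeodomain transcription factors, and in humans they lie in the clusters HOXA, HOXB, HOXC and HOXD on different chromosomes. The genes described here are every symbol of the expression table that is a numbered gene of those clusters or a HOX antisense RNA, together with the long non-coding RNAs HOTAIR, HOTTIP and HOTAIRM1. They are 53 of the 26255 symbols: 17 in HOXA, 12 in HOXB, 14 in HOXC and 10 in HOXD, of which 39 code for protein and 14 do not. The rule that picks them uses names only and no measured value.

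The libraries were made from RNA of MDA-MB-231, a breast cancer line of mesenchymal character that lacks the oestrogen and progesterone receptors. The cells carried a lentiviral short hairpin, either the control shNT or one against GPR81, the cell surface receptor for lactate, and both groups had been selected with puromycin. There were 3 libraries per group, all from this 1 cell line and with no other treatment given in the labels. The study used more than 1 hairpin against GPR81, and neither the hairpin in the sequenced cells nor whether the selected cells came from a single clone is given in the sources used here.

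During development the HOX genes are switched on in the order in which they lie along a cluster, from group 1 at one end to group 13 at the other, and the set that a cell keeps on records its position along the body axis. Polycomb proteins hold the silent genes off, trithorax proteins keep the active ones on, and retinoic acid induces those at the group 1 end. HOX proteins bind DNA together with cofactors of the PBX and MEIS families, and in breast cancer lines individual HOX genes are often on or off in patterns that differ from line to line.

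Values are FPKM, the deposited estimate of the fragments of a gene scaled by transcript length and library size, and the scaling by length allows levels to be compared between genes. Nothing states that the replicates came from separate cultures, so the p-values below measure only the spread between these libraries. GPR81 carries the gene symbol HCAR1. It was listed at 0.968, 1.02 and 1.36 FPKM in the shNT libraries and at 0.978, 0.891 and 0.396 FPKM in the libraries labelled shGPR81, so the groups overlapped (log2 fold change −0.57, SE 0.31, limma adjusted p = 0.380). The reads that match these values were 37, 40 and 52 against 40, 36 and 16. Their ratio per unit of depth was 0.677 (95% Clopper-Pearson interval 0.513 to 0.892, counting error only). The study reported reduced GPR81 in its hairpin lines by RT-qPCR and western blotting. The relative depth of the libraries, from the FPKM value of 1 read, was 1 to 1.07. The 5 markers expected in these cells, VIM, CD44, AXL, MSN and CAV1, were all at 144 FPKM or more in every library, while ESR1, PGR and CDH1 were listed at 0. These 3 were the only ones at 0 of 8 genes thought to be low or at 0 in this line. Of the others, KRT8 was at 132 to 185 FPKM and ERBB2 at 10.6 to 12.6 FPKM. EPCAM was at 5.20 to 6.86 FPKM, FOXA1 at 1.17 to 1.92 FPKM and GATA3 at 1.11 to 1.39 FPKM. Of 5 markers of leukocytes, endothelium and fibroblasts, DCN and LUM were at 0, and the sum of the 5 was 1.02 to 1.28 FPKM in the shNT libraries and 0.584 to 0.775 FPKM in the libraries labelled shGPR81, nearly all of it COL1A1; their part in the results below was not tested.

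Most of the HOX genes were listed at or near 0 in these cells, and those with higher values were HOXB3 and HOXB9 in HOXB, HOXC5 and HOXC6 in HOXC and the group 1 end of HOXD. Of the 53 members, 28 (52.8%) were listed at 0 in all 6 libraries, against 8456 (32.2%) of all symbols. A value of 0 in this table may be a failed estimate and does not by itself show that a gene was not expressed. The members at 0 were 16 of 17 in HOXA, 2 of 12 in HOXB, 4 of 14 in HOXC and 6 of 10 in HOXD. Only 7 members reached a mean of 1 FPKM over the 6 libraries, namely HOXB3, HOXB9, HOXC5, HOXC6, HOXD1, HOXD3 and HOXD4. The sum over all members was 30.3 ± 0.519 FPKM in the shNT libraries and 32.2 ± 1.07 FPKM in the libraries labelled shGPR81 (SD, n = 3 each).

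**Figure D1:**
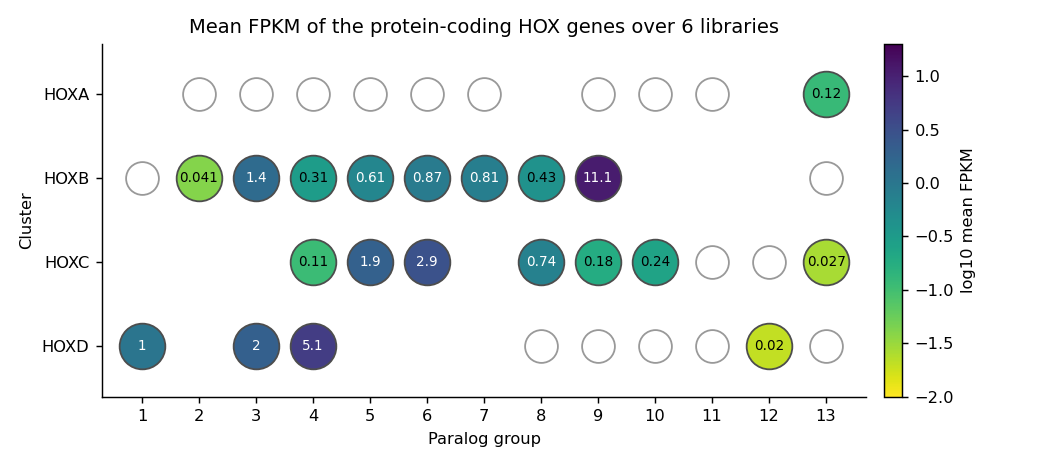
Each circle is a protein-coding HOX gene, placed by cluster (vertical axis) and paralog group (horizontal axis), with the mean FPKM over all 6 libraries written inside and shown by colour on a log10 scale. Small open circles are genes listed at 0 in every library, and the highest value is 11.1 FPKM at HOXB9.

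The question put to these genes was whether any of them differed between the libraries labelled shGPR81 and the shNT libraries. A gene was called when its Benjamini-Hochberg adjusted p in limma, over the 14349 genes that reached 0.1 FPKM in 3 or more libraries, was under 0.05 and its fold change on the log2(FPKM + 0.1) scale was above 1.5. That scale understates the change of genes with low values. Of the 53 members, 18 passed the filter on low values, 8 in HOXB, 7 in HOXC, 3 in HOXD and 0 in HOXA. With limma, 0 members were called lower, where 1.59% of all tested genes were, and 0 were called higher, where 0.955% were. At an unadjusted p under 0.05, 2 members were lower (HOXC5 and HOXC10), where 9.43% of all tested genes were, and 2 were higher (HOXD3 and HOXD4), where 10.1% were. The groups did not overlap in 1 member that was lower (HOXC10), where 12.7% of all genes tested behaved so, and in 3 that were higher (HOXB4, HOXD3 and HOXD4), where 12.9% did. Counts this small beside those shares are not a result about the HOX genes. The log2 fold change was positive in 13 and negative in 5 of the 18, where 7449 of all 14349 tested genes were positive. The median was 0.14 against 0.01 over all tested genes. The positive members include HOXC-AS2, which rests on 2 reads per group and had a mean of 0.163 FPKM in shNT and 0.154 FPKM in shGPR81. These figures describe only the members that passed the filter.

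**Figure D2:**
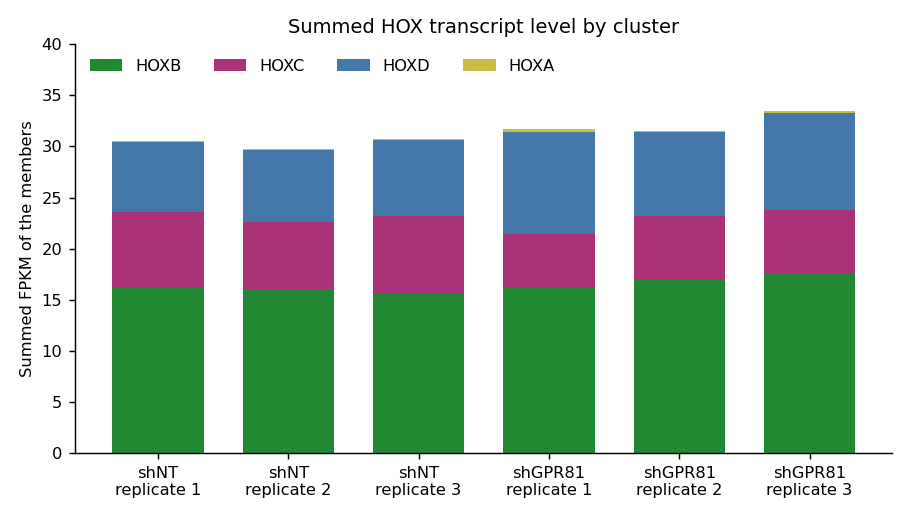
Bars give the summed FPKM of all HOX members in each library, stacked by cluster. HOXD took 22.4% to 24.2% of the sum in the shNT libraries and 26.3% to 31.7% in the libraries labelled shGPR81, and HOXA is barely visible at up to 0.741%.

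Taken by cluster, the summed level was higher in HOXD and lower in HOXC in every library labelled shGPR81 than in any shNT library. The HOXD sum was 6.84, 7.02 and 7.42 FPKM in the shNT libraries and 10.03, 8.28 and 9.45 FPKM in the others, a log2 ratio of 0.38. The HOXC sum was 7.26, 6.55 and 7.496 FPKM against 5.27, 6.20 and 6.26 FPKM, a log2 ratio of −0.27. The HOXB sum differed by less, from 16.0 ± 0.289 to 16.9 ± 0.709 FPKM (SD, n = 3 each), a log2 ratio of 0.08, and its groups overlapped. These sums are descriptions without a test, since a few genes make up most of each.

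HOXD had its transcripts at the group 1 end, with values at or near 0 towards the other. HOXD4 was the highest HOXD gene, followed by HOXD3 and HOXD1. HOXD8, HOXD9, HOXD10, HOXD11, HOXD13 and the antisense RNA HOXD-AS2 were listed at 0 throughout, and HOXD12 was above 0 only in shNT replicate 3, at 0.120 FPKM. HOXD13, HOXD12 and HOXD11 pattern the digits and the limb end of the skeleton, while HOXD3 and HOXD4 act in the neck region of the embryo. The 250 bases before the RefSeq start of these 3 HOXD genes and of HOXD8, the nearest coding gene listed at 0, are shown to compare promoters of 1 cluster with and without measured transcript, with each CpG in capitals (GRCh38.p14, plus strand, ending at the base before the start):

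HOXD1 (chr2:176188418-176188667): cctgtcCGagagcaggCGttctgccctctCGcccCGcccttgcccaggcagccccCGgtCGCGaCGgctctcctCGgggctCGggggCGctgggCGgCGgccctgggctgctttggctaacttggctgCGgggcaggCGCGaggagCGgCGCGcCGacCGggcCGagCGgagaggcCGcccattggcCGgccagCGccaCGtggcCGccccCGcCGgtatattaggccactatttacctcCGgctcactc
HOXD3 (chr2:176157057-176157306): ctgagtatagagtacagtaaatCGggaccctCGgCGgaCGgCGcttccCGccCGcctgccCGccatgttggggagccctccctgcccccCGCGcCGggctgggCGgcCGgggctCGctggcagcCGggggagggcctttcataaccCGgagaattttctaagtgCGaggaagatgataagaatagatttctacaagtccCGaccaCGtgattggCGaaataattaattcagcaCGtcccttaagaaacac
HOXD4 (chr2:176151300-176151549): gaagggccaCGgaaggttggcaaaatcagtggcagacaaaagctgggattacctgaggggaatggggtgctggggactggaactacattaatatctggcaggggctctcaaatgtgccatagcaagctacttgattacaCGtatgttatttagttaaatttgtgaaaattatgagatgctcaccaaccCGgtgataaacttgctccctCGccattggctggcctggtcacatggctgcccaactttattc
HOXD8 (chr2:176129455-176129704): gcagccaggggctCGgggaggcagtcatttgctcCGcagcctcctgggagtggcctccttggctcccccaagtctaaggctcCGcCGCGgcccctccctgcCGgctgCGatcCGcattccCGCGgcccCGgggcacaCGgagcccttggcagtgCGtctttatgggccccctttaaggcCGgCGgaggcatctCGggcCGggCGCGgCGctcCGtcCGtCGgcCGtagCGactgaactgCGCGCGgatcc

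These stretches hold 31 CpG in HOXD1, 21 in HOXD3, 4 in HOXD4 and 28 in HOXD8, so the gene with the highest level had the fewest and HOXD8, listed at 0, had a number near that of HOXD1. The RefSeq start of HOXD3 used here lies between those of HOXD4 and HOXD1. The longest model of HOXD3, used for its span and position below, starts on the other side of HOXD4, so its promoter is not the stretch shown. In the full windows of 300 bases (250 before and 50 after the start) the counts were 36, 25, 4 and 34. Over all 34943 such windows the median was 14 CpG, with quartiles of 4 and 28. A window was found for 27 of the 53 members. The 9 of them above 0 in at least 1 library had 4 to 44 CpG, and the 18 genes listed at 0 had 0 to 41 CpG, some with several windows. The composite letters TGATTNAT, which PBX and HOX proteins bind together, occurred on either strand in windows of 2 of the 27 genes, HOXA2 and HOXD11, both listed at 0, and in 2.82% of all windows. TATAAA occurred in 4 of the 27 and in 11.6% of all windows, and CCAAT in 21 of the 27 and in 34.6% of all windows. CCAAT was present in the windows of HOXD1, HOXD3 and HOXD4 and absent from that of HOXD8. Among the other HOXD members listed at 0, it was present in the windows of HOXD10, HOXD13 and HOXD-AS2 and absent from that of HOXD11. These motifs can share letters at their ends, and several members have more than 1 window, so their shares are descriptions only.

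HOXD4 (GRCh37 chr2:177016278-177017954, plus strand) was listed at 4.33, 4.55 and 4.39 FPKM in the shNT libraries and at 6.10, 5.17 and 6.11 FPKM in the libraries labelled shGPR81. All 3 of the latter were above all 3 of the former, with means of 4.42 ± 0.114 and 5.79 ± 0.540 FPKM (SD, n = 3 each). The log2 fold change was 0.38 with an SE of 0.09, and the limma adjusted p was 0.0681, so the gene was not called. The exact two-sided permutation test gave p = 0.1, the smallest that 3 against 3 libraries allow. The FPKM of a gene are whole multiples of the value of 1 read where reads were counted whole, and the smallest multiples give 65, 70 and 66 reads against 98, 82 and 97 reads. Their ratio per unit of depth was 1.31 (95% Clopper-Pearson interval 1.09 to 1.58), and this interval, like the others of reads, covers counting error only.

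HOXD3 (chr2:177001340-177037830, plus strand), whose annotated span encloses that of HOXD4, was at 1.73, 1.79 and 1.59 FPKM in the shNT libraries and at 2.36, 2.07 and 2.49 FPKM in the libraries labelled shGPR81. The groups did not overlap here either. The log2 fold change was 0.41 with an SE of 0.12 (limma adjusted p = 0.110), and the reads were 50, 53 and 46 against 73, 63 and 76, a ratio of 1.35 (1.09 to 1.68). Both genes were lowest in replicate 2 among the libraries labelled shGPR81. The ratio of HOXD4 to HOXD3 stayed between 2.45 and 2.76 in the 6 libraries. In the annotation used here for positions the exons of HOXD3 and HOXD4 share no bases, and whole reads were recovered for both. The annotation behind the FPKM is not given, and a split of reads between these genes was not tested.

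HOXD1 (chr2:177053396-177055635, plus strand), at the end of the cluster, was at 0.779, 0.680 and 1.31 FPKM in the shNT libraries and at 1.57, 1.05 and 0.853 FPKM in the others. The groups overlapped, and the log2 fold change of 0.31 had an SE of 0.29 (limma adjusted p = 0.649).

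HAGLR, the long non-coding RNA also called HOXD-AS1, is not a member by name and was added after its values were seen, because it is transcribed from the opposite strand across the stretch from HOXD1 to HOXD3 (chr2:177028779-177053686, minus strand). It was listed at 5.01, 5.23 and 5.27 FPKM in the shNT libraries and at 7.41, 7.21 and 6.36 FPKM in the libraries labelled shGPR81, without overlap. The log2 fold change was 0.43 with an SE of 0.09 and the limma adjusted p was 0.0327, which passes the p threshold and not the fold threshold. Its annotated exons share 145 bases with HOXD1 and 138 bases with HOXD3 on the other strand. The kit marks the strand, but the strand setting of the counting is not given in the sources used here, so reads of these stretches could count for either gene. HAGLROS, its own antisense transcript, was at 0 in 4 libraries and at 0.437 and 0.147 FPKM in replicates 1 and 2 labelled shGPR81.

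**Figure D3:**
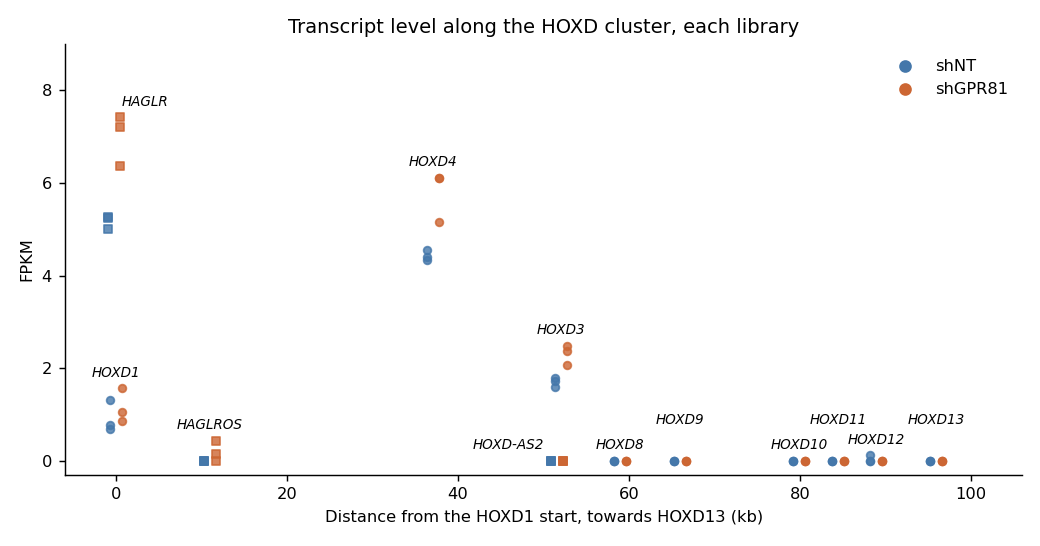
FPKM of each HOXD gene (circles) and non-coding RNA of the cluster (squares) in each library, against the distance of its annotated start from that of HOXD1 in kb; the annotated HOXD3 start lies beyond HOXD4 because the longest model of the gene was used. HAGLR, HOXD3 and HOXD4 lie higher in all 3 libraries labelled shGPR81 (orange) than in all shNT libraries (blue), HOXD1 overlaps, and the genes from HOXD8 on lie at or near 0.

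HOXC gave the only members with an unadjusted p under 0.05 in the lower direction. HOXC6, which is among the HOX genes known to be expressed in mammary tissue, was the highest of the cluster at 2.61, 2.93 and 3.05 FPKM in the shNT libraries and 2.99, 3.12 and 2.88 FPKM in the others. Its groups overlapped, and the log2 fold change was 0.07 with an SE of 0.10 (limma adjusted p = 0.790).

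HOXC10 (chr12:54378849-54384063, plus strand), a gene of the trunk and hindlimb region, was at 0.166, 0.485 and 0.455 FPKM in the shNT libraries and at 0.116, 0.157 and 0.0782 FPKM in the libraries labelled shGPR81. The groups did not overlap, but shNT replicate 1 was close to the highest of the other group. The log2 fold change was −1.04 with an SE of 0.37, the limma adjusted p was 0.174, and the permutation p was at its minimum of 0.1 (exact, two-sided). These values rest on 4, 12 and 11 reads against 3, 4 and 2 reads, a ratio of 0.317 (0.131 to 0.693). Without shNT replicate 1 the log2 fold change was −1.41 and the adjusted p 0.0425, and HOXC10 was then the only member called.

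HOXC5 (chr12:54426834-54429145, plus strand) was at 2.40, 1.84 and 2.83 FPKM in the shNT libraries and at 1.14, 1.52 and 1.88 FPKM in the others. The highest library labelled shGPR81 lay above the lowest shNT library. The log2 fold change was −0.61 with an SE of 0.22 (limma adjusted p = 0.177). HOXC5 lies inside the annotated span of HOXC4, the RefSeq promoter windows of the 2 genes are the same, and HOXC4 and HOXC6 share 484 exonic bases on 1 strand. The FPKM of HOXC4, HOXC5 and HOXC6 were not whole multiples of a read value, so their reads were not recovered, and how reads were divided between them cannot be told from the table. HOXC4 itself was at 0.0990 ± 0.0503 and 0.125 ± 0.0455 FPKM (SD, n = 3 each). Summed over the 3 genes, the level was 5.15, 4.82 and 5.97 FPKM in the shNT libraries and 4.27, 4.71 and 4.92 FPKM in the others, and these ranges overlapped.

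The other HOXC genes were low. HOXC8 went from 0.795 ± 0.105 to 0.678 ± 0.191 FPKM and HOXC9 from 0.198 ± 0.0640 to 0.171 ± 0.0601 FPKM (SD, n = 3 each), with limma adjusted p-values of 0.672 and 0.855. The antisense RNAs HOXC-AS2 and HOXC-AS3 were above 0 in 3 and 2 libraries, where they rested on at most 2 reads each. HOXC-AS2 was at 0.490 FPKM in shNT replicate 1 and at 0.232 FPKM in replicates 2 and 3 labelled shGPR81, and it passed the filter on these 3 libraries. HOXC-AS3 was at 0.452 FPKM in shNT replicate 1 and at 0.428 FPKM in replicate 2 labelled shGPR81, and it did not pass. HOXC13 reached 3 reads in 1 library at most, and HOXC-AS1 was above 0 in shNT replicate 2 only, at 0.208 FPKM. HOXC11, HOXC12, HOXC13-AS and HOTAIR, an RNA described as guiding polycomb proteins to HOXD, were listed at 0.

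HOXB held the highest HOX gene of these cells. HOXB9 (chr17:46698518-46703720, minus strand), which has a role in mammary gland growth, was at 10.2, 11.4 and 11.3 FPKM in the shNT libraries and at 10.97, 10.9 and 11.6 FPKM in the libraries labelled shGPR81. It made up 33.5% to 38.5% of the summed level of all members. The groups overlapped, and the log2 fold change was 0.02 with an SE of 0.07 (limma adjusted p = 0.907). With 351, 403 and 390 reads against 404, 396 and 422 reads it was the best-measured member, and its read ratio of 1.01 had an interval of 0.935 to 1.10.

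The next HOXB genes were about an order of magnitude lower. HOXB3 was at 1.37 ± 0.206 and 1.48 ± 0.0406 FPKM, HOXB6 at 0.831 ± 0.208 and 0.914 ± 0.0901 FPKM, HOXB7 at 0.852 ± 0.474 and 0.767 ± 0.217 FPKM, and HOXB5 at 0.580 ± 0.199 and 0.634 ± 0.148 FPKM (SD, n = 3 each, shNT first). In these 4 genes and in the antisense RNA HOXB-AS3, at 0.772 ± 0.278 and 0.956 ± 0.412 FPKM, the groups overlapped. The ranges of HOXB5, HOXB6, HOXB7 and HOXB-AS3 overlapped one another. The lowest HOXB3 value, 1.15 FPKM, lay below the highest values of HOXB7 and HOXB-AS3, 1.31 and 1.32 FPKM.

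HOXB4, known for expanding blood stem cells, was at 0.318, 0.271 and 0.159 FPKM in the shNT libraries and at 0.371, 0.376 and 0.375 FPKM in the others. The groups did not overlap, on 8, 7 and 4 reads against 10 reads in each library, and the log2 fold change was 0.47 with an SE of 0.25 (limma adjusted p = 0.375). The read ratio of 1.5 had an interval of 0.817 to 2.82, which holds 1. HOXB8 was at 0.538, 0.0876 and 0.269 FPKM against 0.461, 0.552 and 0.679 FPKM. The range of its shNT libraries was wider than the difference of the group means, 0.298 ± 0.227 and 0.564 ± 0.109 FPKM (SD, n = 3 each). The groups overlapped, and the log2 fold change of 0.90 had an SE of 0.43 (limma adjusted p = 0.314). The HOXB8 reads were 12, 2 and 6 against 11, 13 and 16, a ratio of 1.90 (1.08 to 3.43). This interval leaves out 1 but covers counting error only. HOXB2 had at most 2 reads in any library, HOXB-AS1 was above 0 in shNT replicate 1 only, at 0.123 FPKM, and HOXB1 and HOXB13 were listed at 0. HOXB13 sits apart from the rest of its cluster and marks prostate and hindgut.

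**Figure D4:**
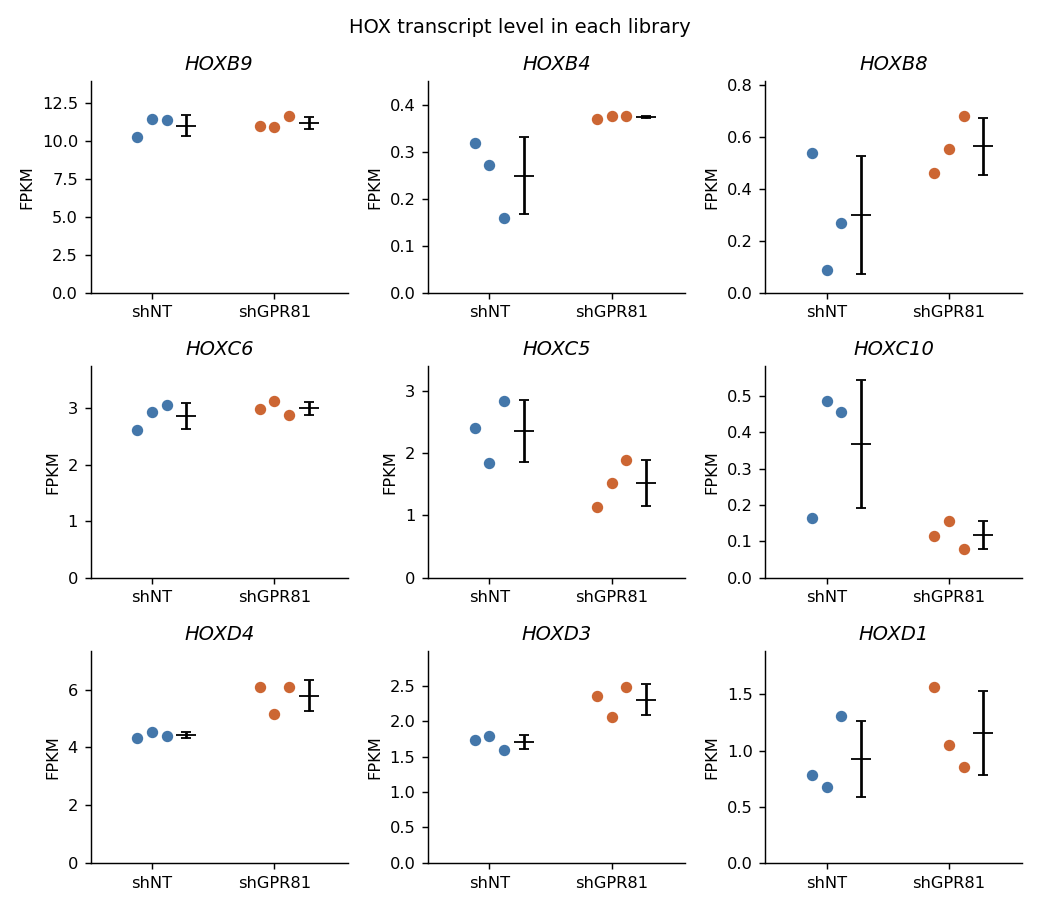
FPKM of 9 members in each library, shNT on the left and libraries labelled shGPR81 on the right of every panel, with the mean and SD beside the points; each axis starts at 0 and has its own scale. HOXD4, HOXD3 and HOXB4 are higher and HOXC10 is lower in all 3 libraries labelled shGPR81, and the other 5 genes overlap.

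HOXA was listed at 0 except for 1 gene at its far end. HOXA13 (chr7:27233122-27239710, minus strand), a gene of the limb end and the urogenital tract, was at 0.0943, 0.0613 and 0.0628 FPKM in the shNT libraries and at 0.235, 0.0892 and 0.178 FPKM in the libraries labelled shGPR81. It reached 0.1 FPKM in 2 libraries and so was not tested by limma. It rested on 3, 2 and 2 reads against 8, 3 and 6 reads, a ratio of 2.31 with an interval of 0.909 to 6.58, and the exact permutation p was 0.2. The groups overlapped. HOTTIP, the RNA transcribed away from HOXA13 on the other strand, was listed at 0 although the promoter windows of the 2 genes share 171 bases. HOXA2, HOXA3, HOXA4, HOXA5, HOXA6, HOXA7, HOXA9, HOXA10, HOXA11, HOXA-AS2, HOXA-AS3, HOXA10-AS, HOXA11-AS and HOTAIRM1 were listed at 0 in every library. In the members with recovered reads 1 read was worth 0.0213 to 0.452 FPKM, and this value is not known for genes listed at 0. No read counted in 1 library is still compatible with an expected number of up to 3 reads, and all libraries at 0 together with fewer. Low expression of these genes may therefore have gone undetected at this depth.

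**Figure D5:**
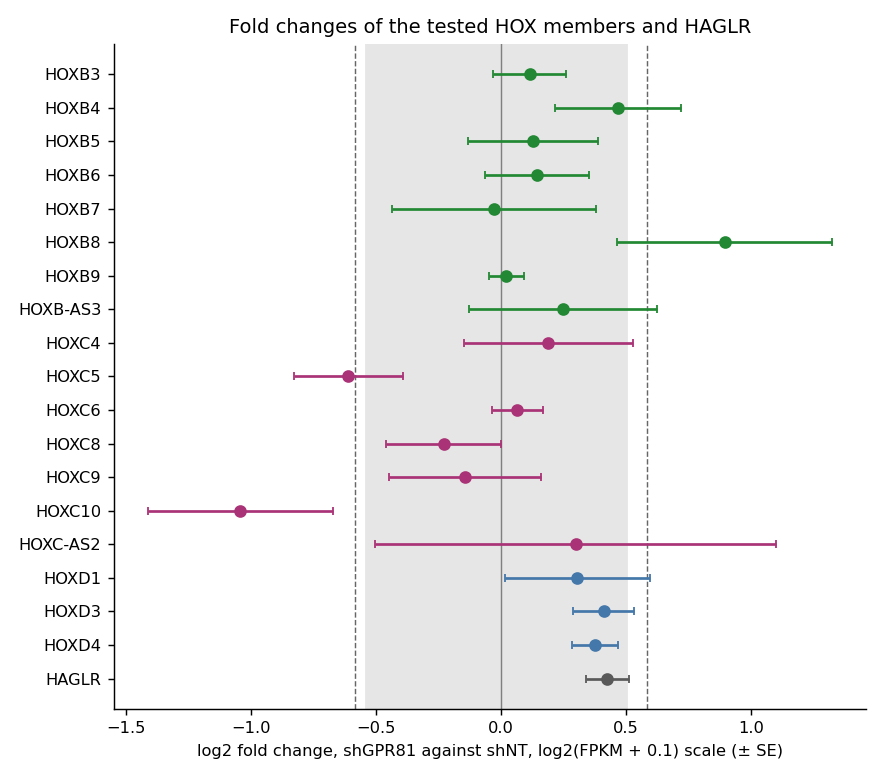
Points are log2 fold changes (libraries labelled shGPR81 against shNT, log2(FPKM + 0.1) scale) with SE bars for the 18 tested members, coloured by cluster, and for HAGLR in grey. The shaded band runs from the 5th to the 95th percentile of all 14349 tested genes, −0.54 to 0.51, the dashed lines mark a fold of 1.5, and HOXC5, HOXC10 and HOXB8 lie outside the band.

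Genes that set HOX expression were compared as lists of retinoic acid, polycomb and trithorax genes. Over all tested genes, 1.59% were called lower and 0.955% higher, and at an unadjusted p under 0.05 the shares were 9.43% lower and 10.1% higher. The counts in these lists and in the lists of neighbouring genes stand beside those shares, and with so few genes per list they are descriptions only. In the retinoic acid list 1 of 11 tested genes was called, and it was lower, while 4 were lower and 2 higher at an unadjusted p under 0.05. The 2 higher ones were RXRA and RXRB, which encode partner receptors of the retinoic acid receptors, with log2 fold changes of 0.37 (SE 0.11, limma adjusted p = 0.0983) and 0.14 (SE 0.06, limma adjusted p = 0.228). Besides the called gene, the lower ones were ALDH1A3 (−0.26, SE 0.08, limma adjusted p = 0.136), CYP26B1 (−0.26, SE 0.10, limma adjusted p = 0.214) and STRA6 (−0.80, SE 0.31, limma adjusted p = 0.221). STRA6 was low, with means of 0.157 FPKM in shNT and 0.0481 FPKM in shGPR81. The called gene, CRABP2, which carries retinoic acid to its nuclear receptors, was at 14.6, 14.1 and 17.7 FPKM in the shNT libraries and at 9.32, 8.70 and 8.61 FPKM in the others, and it fell by 0.79 on the log2 scale with an SE of 0.10 (limma adjusted p = 0.00472). Of the 33 polycomb genes, all tested, 0 were called by limma in either direction, with 2 lower and 5 higher at an unadjusted p under 0.05. The 2 with the smallest p were ASXL1, part of a polycomb deubiquitinase (log2 fold change −0.35, SE 0.06, adjusted p = 0.0183), and CBX7, which reads the polycomb mark (0.36, SE 0.09, adjusted p = 0.0802). EZH2, the enzyme that writes this mark, was at 46.1 ± 5.12 and 48.0 ± 2.59 FPKM (SD, n = 3 each), with overlap. Of the 27 genes in the trithorax list, all tested, 0 were called by limma. The list is broad and also holds other chromatin genes, such as CTCF and RAD21. At an unadjusted p under 0.05, 1 of the 27 was lower and 1 higher. They were NSD1, a histone methyltransferase (log2 fold change −0.17, SE 0.07, adjusted p = 0.231), and WDR5, a shared subunit of the trithorax-type methyltransferases (0.15, SE 0.05, adjusted p = 0.194).

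Genes on either side of the clusters were taken as a measure of the surrounding regions. Around HOXD, 8 of 9 such genes were tested and limma called 0, with 2 at an unadjusted p under 0.05, both lower. CHN1, a GTPase-activating protein gene 1183 kb from HOXD1 past the HOXD13 end, fell by 0.39 on the log2 scale (SE 0.07, limma adjusted p = 0.0182), and AGPS, an enzyme of ether lipid synthesis on the other side, was at −0.16 (SE 0.06, adjusted p = 0.196). MTX2, the nearest listed gene beyond HOXD1 at 80.7 kb, was at 0.13 (SE 0.07, adjusted p = 0.331), and EVX2, next to HOXD13, was listed at 0. Around HOXA, 1 of 5 tested genes was called, SNX10, a sorting nexin gene 804 kb away, at 0.786, 0.776 and 0.733 FPKM against 0.420, 0.355 and 0.258 FPKM (log2 fold change −0.98, SE 0.20, limma adjusted p = 0.0378). It was not called with any 1 library left out (limma adjusted p = 0.0649 to 0.139) or with a replicate block (limma adjusted p = 0.0648). Nor was it called without the filter on low values or with a pseudocount of 1 FPKM. At an unadjusted p under 0.05, 1 HOXA neighbour was lower and 2 were higher. The higher ones were SKAP2, an adaptor protein gene 101 kb away and the nearest of those tested (0.33, SE 0.06, limma adjusted p = 0.0220, below the fold threshold), and HIBADH, an enzyme of valine breakdown (0.29, SE 0.08, limma adjusted p = 0.0802). Around HOXB, 0 of 8 tested genes were called by limma and 1 was higher at an unadjusted p under 0.05, UBE2Z, a ubiquitin-conjugating enzyme gene (log2 fold change 0.16, SE 0.05, adjusted p = 0.123). CBX1, a heterochromatin protein gene, had the next smallest p (0.13, SE 0.06, adjusted p = 0.283). Around HOXC, 0 of 11 were called by limma, with 1 lower and 2 higher at an unadjusted p under 0.05. Those with the smallest p were NFE2, a blood cell transcription factor gene (−1.17, SE 0.39, adjusted p = 0.149), and ZNF385A, a zinc finger gene (0.41, SE 0.14, adjusted p = 0.160). NFE2 was low, with means of 0.261 FPKM in shNT and 0.0620 FPKM in shGPR81, where replicate 1 was at 0. Its log2 fold change ran from −2.44 to −0.24 over 9 alternatives to the fit. In bulk RNA, fewer cells of a type and less RNA per cell cannot be told apart for any of these genes.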

How the data were processed

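RNA was measured in 3 shNT and 3 shGPR81 libraries, grouped by the hairpin in the labels. Stranded mRNA libraries were read as single ends of 75 bases. The deposited table holds FPKM that, per the submitters' processing notes, the authors made with TopHat2 2.0.13, Bowtie2 2.2.3, SAMtools 0.1.19 and Cuffnorm 2.2.1. The methods of the study name the human genome hg19 and the text deposited with the data names mm10. The cells are human, and hg19 (GRCh37) was used. The annotation and the strand setting are not given in the sources used here.

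From these values log2(FPKM + 0.1) was fitted with limma 3.58.1 (lmFit, eBayes with trend) in R 4.3.3 over the 14349 genes that reached 0.1 FPKM in 3 or more libraries. Calls needed a Benjamini-Hochberg adjusted p below 0.05 with a fold over 1.5. The design had named another test for the case that the files held counts, and they hold FPKM. The fit was tested on simulated data.

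The members follow a rule on names alone, but this rule, the gene lists and the rule for the genes named were set with earlier results of these data known. Members with a mean of 0.1 FPKM or more, or above it in 3 libraries, are named with values, those at 0 by name only, and of the lists the called genes or otherwise the 2 with the smallest p. Genes outside this rule (HAGLR, HAGLROS, MEIS1, MEIS2, MEIS3, PKNOX2, EZH2, CTCF, RAD21, RXRA, RXRB, ALDH1A3, CYP26B1, STRA6, SKAP2, HIBADH, MTX2, EVX2 and the markers) were added for their role or after their values were seen. Some genes are not reported here.

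Depth is not given with the values. Reads were taken as the smallest whole numbers whose ratios match the FPKM of the 6 libraries within 5e-05, for 5946 of 15931 genes and 18 members. If the true numbers are multiples of these, the counting intervals are too wide. Within groups, pairs of libraries differed by a mean chi-square of 2.72 to 4.63 over genes (1 under counting noise), so no library was counted as a repeat of another. Positions are those of GENCODE release 44 on GRCh37, and promoter windows are those of RefSeq on GRCh38.p14. Alternatives were leaving out each library, a replicate block, other filters and pseudocounts, median centring, quantile normalization and, for cluster sums, rescaling and coding genes only.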

Additional observations from a re-analysis of the deposited data

How the results depend on the processing

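No HOX member was called higher under any of the 13 alternatives to the fit, and 1 (HOXC10) was called lower only without shNT replicate 1, so the count ran from 0 to 1 over the left-out libraries. The counts over all tested genes, 228 lower and 137 higher, became 142 and 75 with a pseudocount of 1 FPKM, and they ran from 110 to 238 and from 68 to 156 over the left-out libraries. CRABP2 was called lower under all 13. SNX10 was called under 3 of 12 alternatives.

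The labels number the libraries and state no pairing. Over genes, the deviations of same-numbered libraries had correlations of 0.12, 0.0223 and 0.00577. Pairs with different numbers were not computed beside them, so these values cannot decide whether the libraries were paired. A replicate block gave 197 genes lower and 115 higher, with 0 HOX members in either direction, and adjusted p-values of 0.106 for HOXD4, 0.160 for HOXD3 and 0.175 for HOXC10.

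HOXD4 and HOXD3 had positive fold changes under all 13 alternatives, with adjusted p-values of 0.0593 to 0.237 and 0.0969 to 0.302. HAGLR stayed under the p threshold in 7 of 13. HOXB9 turned negative without shNT replicate 1 and without shGPR81 replicate 3 (−0.0059); over the left-out libraries it ran from −0.0296 to 0.0517, around its value of 0.02. Without shGPR81 replicate 3 the log2 fold change of HCAR1 was −0.22 against −0.57. The cluster sums kept their direction and moved by less than 1 SD under their 8 alternatives each. Depth limits the members with means below 0.5 FPKM, which, where reads were recovered, rest on at most 16 reads in a library.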

Other observations

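Summed over the clusters, paralog group 9 had the highest level, 11.2 ± 0.618 FPKM in the shNT libraries and 11.3 ± 0.416 FPKM in the libraries labelled shGPR81 (SD, n = 3 each), nearly all of it HOXB9. Paralog group 4 was next, at 4.80, 4.87 and 4.65 FPKM in the shNT libraries and 6.61, 5.61 and 6.64 FPKM in the others, most of it HOXD4. Group 11 was listed at 0 in every library.

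MEIS1, a HOX cofactor gene below the filter on low values, rested on 7, 3 and 2 reads in the shNT libraries and on 0, 0 and 1 reads in the libraries labelled shGPR81. MEIS3 was at 0.679, 0.836 and 0.967 FPKM against 0.230, 0.567 and 0.566 FPKM, without overlap (log2 fold change −0.80, SE 0.31, limma adjusted p = 0.210). Of the 12 tested genes in the list of HOX cofactors, the groups did not overlap in 2 that were lower and 2 that were higher. Over all tested genes, 12.7% and 12.9% behaved so. PKNOX2 was among the higher ones, on 2, 2 and 5 reads against 15, 7 and 8 (log2 fold change 0.85, SE 0.34, limma adjusted p = 0.222). MEIS2 overlapped (−0.11, SE 0.12, limma adjusted p = 0.696). These MEIS and PKNOX genes were named after their values were seen.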
